A study of Homo sapiens with 22 samples.

Results

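The integrated stress response and the unfolded protein response were followed through 38 genes, of 48162 gene IDs counted, in HEK293 cells that carried fusions of catalytically dead Cas9. The genes were taken by name from a list, 21 of the integrated stress response and its ATF4 targets and 17 of the endoplasmic reticulum (ER) chaperones and the unfolded protein response. All 38 matched 1 gene ID each and all 38 passed the filter on low counts, beside 16694 genes in all.

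HEK293 is a cell line derived from human embryonic kidney. Dead Cas9 (dCas9) binds DNA where a guide RNA leads it and does not cut, so a domain fused to it is carried to the guide's site. The VPR sgHBB group held dCas9-VPR, which carries the activation domains VP64, p65 and Rta, with a guide against the beta-globin gene HBB. The p300 sgHBB group held dCas9-p300, which carries the acetyltransferase encoded by EP300, with the same target. In the p300 D1399Y sgHBB group the p300 part had a substitution that impairs catalysis. The VPRP sgHBB group held dCas9-VPRP, which joins VPR and p300, with the HBB guide, and the VPRP non-target group held dCas9-VPRP with a guide that has no target. The WT group carried a guide but no fusion. Its label reads as no treatment, and which guide it carried is not given in the sources used here. There were 2 libraries per group, 12 in all, described by the series as biological replicates; nothing says that they came from separate cultures, so p-values measure the spread between these libraries, which may be technical. Per the labels, dox induced the fusions for 48 hours, cells with a fusion were sorted for GFP and BFP together and WT cells for BFP alone, and RNA was selected for poly-A. A difference of a fusion group from WT therefore includes the fusion, the sort gate and possibly the guide and dox, which cannot be told apart; whether WT cells received dox is not given in the sources used here.

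In the integrated stress response, kinases that sense missing amino acids, viral RNA, heme shortage or misfolded protein phosphorylate the initiation factor eIF2. General translation then falls while translation of ATF4 mRNA rises, and the ATF4 protein switches on genes for amino acid synthesis, amino acid import and redox balance, and, when stress lasts, the factors ATF3 and CHOP (encoded by DDIT3). In the unfolded protein response, the ER sensors PERK (EIF2AK3), IRE1 (ERN1) and ATF6 respond to misfolded protein, and the transcription factors downstream of IRE1 and ATF6 raise chaperones, foldases and degradation factors of the ER. PERK is also a kinase of eIF2, which joins the pathways. The counts measure mRNA, and ATF4 is controlled largely at translation, so its mRNA does not stand for the amount of its protein.

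The ATF4 and ATF6 pathways are known to read different promoter elements, which are shown here for members that carry the letters of each. The submitters' processing notes name the build hg19; promoter sequences were taken from RefSeq (build GRCh38.p14), 300 bases for each gene, of which 250 lie before the start site, and 35 of the 38 members had an entry. SHMT2, SLC7A11 and NUPR1 had none. A C/EBP-ATF response element (CARE) was searched as TGATGNAA on both strands, and 1003 of 27305 promoters (3.67%) held it. Among the 18 promoters of the stress response list, 4 held it (ASNS, ATF3, CHAC1 and SLC3A2), and SLC3A2 had it after the start site. An ER stress response element (ERSE) was searched as CCAAT followed, after 9 bases of any kind, by CCACG on both strands, and 22 of the 27305 promoters (0.0806%) held it. Of the 17 promoters of the ER list, 5 did: CALR, CRELD2, HSP90B1, HSPA5 and XBP1. The related ERSE-II, searched as ATTGG, any base, then CCACG on both strands, was in 15 promoters (0.0549%), those of HERPUD1 and SDF2L1 among them. The cyclic AMP element TGACGTCA, which reads the same on both strands, was in 540 promoters (1.98%), and PPP1R15A held it. The unfolded protein response element TGACGTGG, on both strands, was in 217 (0.795%), and no member held these letters in this window. A match is a description of letters and not of a bound site. The 250 bases before the start are printed 5′ to 3′ on the gene's strand, with the match in capitals; where the match lies on the opposite strand its reverse complement is what is seen. ASNS (chr7:97872409-97872658, minus strand) has the CARE from -68 to -61, CHAC1 (chr15:40953221-40953470, plus strand) from -209 to -202 on the opposite strand, and ATF3 (chr1:212565157-212565406, plus strand) from -191 to -184.
ASNS: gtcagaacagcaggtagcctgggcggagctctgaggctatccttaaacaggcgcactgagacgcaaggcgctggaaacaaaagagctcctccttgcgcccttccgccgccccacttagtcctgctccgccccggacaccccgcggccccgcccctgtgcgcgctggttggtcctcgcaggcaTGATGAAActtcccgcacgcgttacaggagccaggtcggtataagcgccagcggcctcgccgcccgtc
CHAC1: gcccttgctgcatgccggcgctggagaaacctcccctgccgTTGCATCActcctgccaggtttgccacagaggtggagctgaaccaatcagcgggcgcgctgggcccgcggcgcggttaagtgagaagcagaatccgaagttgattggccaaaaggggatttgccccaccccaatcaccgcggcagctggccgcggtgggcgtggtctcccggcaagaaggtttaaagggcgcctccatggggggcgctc
ATF3: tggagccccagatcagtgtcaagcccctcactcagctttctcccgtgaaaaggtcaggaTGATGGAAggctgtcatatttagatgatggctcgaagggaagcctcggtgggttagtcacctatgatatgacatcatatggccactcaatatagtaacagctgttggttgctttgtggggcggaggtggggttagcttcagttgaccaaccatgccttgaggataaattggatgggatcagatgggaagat
HSPA5 (chr9:125241344-125241593, minus strand) has the ERSE from -66 to -48, CALR (chr19:12938359-12938608, plus strand) from -225 to -207 on the opposite strand, and HSP90B1 (chr12:103930160-103930409, plus strand) has a match from -194 to -176 and another, on the opposite strand, from -89 to -71. HERPUD1 (chr16:56931892-56932141, plus strand) was the member with both kinds: a CARE from -176 to -169 on the opposite strand and an ERSE-II from -117 to -107.
HSPA5: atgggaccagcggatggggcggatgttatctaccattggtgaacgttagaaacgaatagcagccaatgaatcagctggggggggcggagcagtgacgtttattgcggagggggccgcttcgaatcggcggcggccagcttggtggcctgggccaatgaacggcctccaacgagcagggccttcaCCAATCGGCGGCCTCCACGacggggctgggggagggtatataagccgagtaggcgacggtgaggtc
CALR: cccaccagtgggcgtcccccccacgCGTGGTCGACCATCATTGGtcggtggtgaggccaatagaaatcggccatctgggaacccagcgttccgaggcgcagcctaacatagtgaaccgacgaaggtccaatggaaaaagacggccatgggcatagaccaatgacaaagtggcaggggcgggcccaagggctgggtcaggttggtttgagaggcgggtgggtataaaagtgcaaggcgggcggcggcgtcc
HSP90B1: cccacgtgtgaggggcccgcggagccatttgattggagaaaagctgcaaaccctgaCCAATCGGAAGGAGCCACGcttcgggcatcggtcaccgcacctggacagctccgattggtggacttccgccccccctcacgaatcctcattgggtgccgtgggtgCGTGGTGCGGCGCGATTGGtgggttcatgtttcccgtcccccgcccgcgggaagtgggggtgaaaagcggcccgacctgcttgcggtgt
HERPUD1: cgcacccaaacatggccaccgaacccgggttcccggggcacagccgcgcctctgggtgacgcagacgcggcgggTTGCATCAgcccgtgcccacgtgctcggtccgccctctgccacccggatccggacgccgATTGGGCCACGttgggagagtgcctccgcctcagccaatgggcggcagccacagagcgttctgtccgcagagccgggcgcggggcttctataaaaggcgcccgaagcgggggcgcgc

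Libraries held 14894558 to 17479523 counts. Levels are given in CPM, which divides each count by the scaled depth of its library, as mean ± SD (n = 2), and a gene was called where the adjusted p of edgeR's quasi-likelihood test (Benjamini-Hochberg over 16694 genes) was under 0.05. EP300 reads, from the cells' gene and the constructs together, were at 107 CPM in WT, 98.7 in VPR sgHBB, 195 in p300 D1399Y sgHBB, 375 in VPRP sgHBB, 1124 in p300 sgHBB and 1172 in VPRP non-target. MAGEA10, a gene of the cancer-testis family, split the libraries in another way: its means were 9.46 CPM in WT, 25.9 in VPR sgHBB and 32 in VPRP non-target, and 0, 0.0692 and 0.213 in p300 sgHBB, p300 D1399Y sgHBB and VPRP sgHBB. Comparisons of groups on opposite sides of this split cannot be told apart from it. The 5 HEK293 markers matched (NEFM, PAX2, KRT8, KRT18 and VIM) had counts in each group. Per library they summed to 359 to 376 CPM in WT, 376 to 381 in p300 D1399Y sgHBB, 291 to 316 in VPR sgHBB, 236 to 249 in VPRP non-target, 223 to 231 in VPRP sgHBB and 223 to 227 in p300 sgHBB. Of them VIM was lower than WT by log2 -1.49 in VPRP sgHBB and -1.56 in VPRP non-target, and NEFM by log2 -1.09 in VPRP sgHBB and -1.32 in p300 sgHBB. KRT8 was called higher than WT in each fusion group, by log2 1.33 in VPRP sgHBB and 0.84 in VPRP non-target. PAX2 and KRT18 were not called against WT. Among blood cell markers, PTPRC and CD3E were at 0.289 CPM or less and HBA1 at 0.729 CPM or less in each library. CD14 was at 0.0672 and 0.129 CPM in WT, 0.457 and 0.497 in VPRP sgHBB and 1.64 and 1.77 in VPRP non-target. ITGAM was at 0.134 and 0 CPM in WT, 0.326 and 0.663 in VPRP sgHBB and 1.28 and 1.33 in VPRP non-target, so both were low throughout and higher in the VPRP groups. The 5 fibroblast and endothelial markers summed to 15.7 to 18.3 CPM in WT, 61.3 to 65 in VPRP sgHBB and 42.7 to 43.4 in VPRP non-target, mostly from COL1A1 (11.1 to 61 CPM over all libraries), with DCN and CDH5 at 0.554 CPM or less. COL3A1 went the other way, from 4.78 CPM in WT to 1.97 in VPRP sgHBB (log2 -1.25) and 1.91 in VPRP non-target (log2 -1.32). The part of these markers in the results was not tested. In bulk RNA, fewer cells of a kind and less RNA per cell cannot be told apart.

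Genes of the integrated stress response were mostly lower in cells with a fusion than in WT. In VPRP sgHBB 18 of the 21 were called lower and 2 higher, where 28% of all genes tested were called lower and 31.1% higher. The list's median log2 difference was -0.91, against 0.04 for all genes. VPRP non-target gave 18 lower and 2 higher (all genes 28.5% and 31.2%) with a median of -0.80. VPR sgHBB gave 17 lower and 0 higher (11.5% and 13.8%), with a median of -0.48. In p300 D1399Y sgHBB 18 were lower and 0 higher (14.5% and 15.7%), with a median of -0.53. The list moved least in p300 sgHBB, with 9 lower and 2 higher (21.6% and 24.5%) and a median of -0.15. These 5 comparisons share the same 2 WT libraries, so their counts are not independent of each other. MAGEA10 had reads in WT, VPR sgHBB and VPRP non-target, but it was higher than WT by log2 1.45 in VPR sgHBB and 1.76 in VPRP non-target. Whether what underlies the MAGEA10 levels has a part in the differences of these groups from WT was not tested. Library by library, the median of the 21 genes relative to the WT mean was -0.86 and -0.95 in VPRP sgHBB, -0.81 and -0.82 in VPRP non-target, -0.51 and -0.49 in p300 D1399Y sgHBB, -0.45 and -0.48 in VPR sgHBB and -0.17 and -0.16 in p300 sgHBB. Replicates lay close together and the fusion groups fell into 3 levels: p300 sgHBB nearest to WT, VPR and p300 D1399Y below it, and both VPRP groups lowest.

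**Figure D1:**
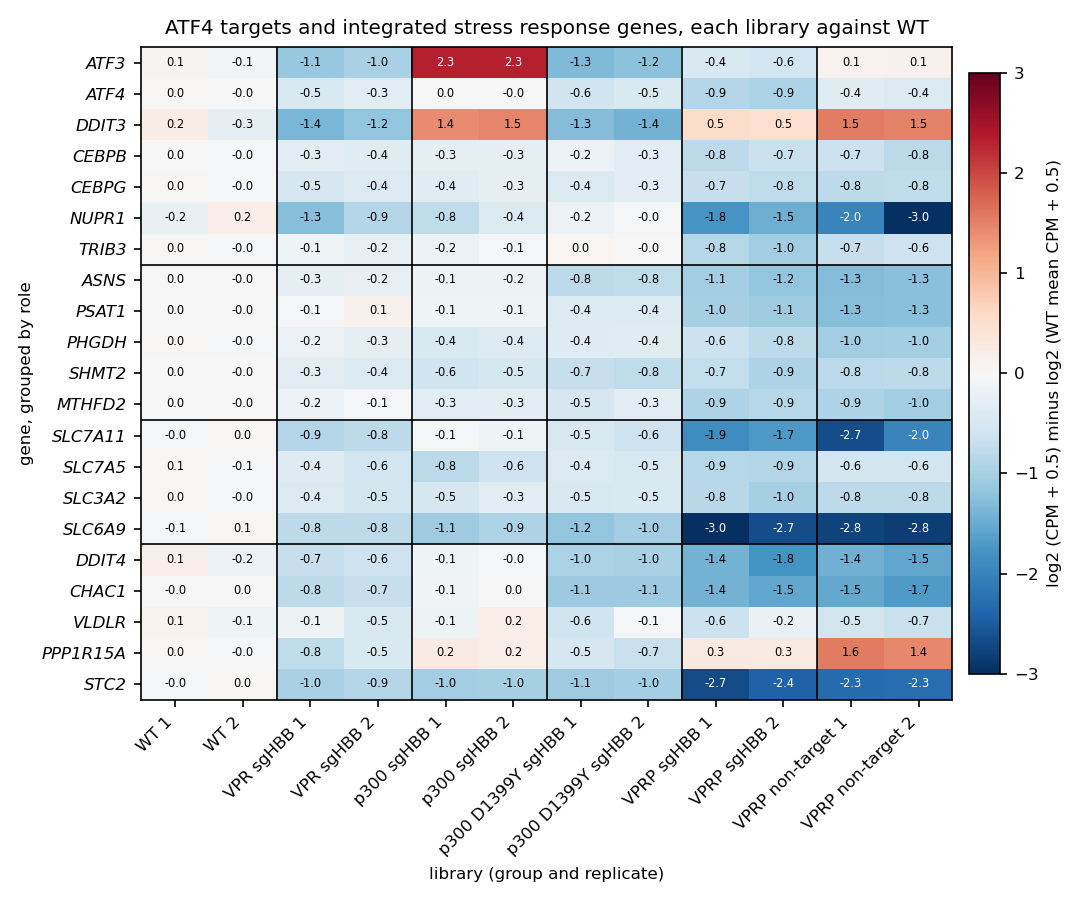
Each cell is the log2 level of a gene (rows, grouped by role) in a library (columns), as log2 of CPM plus 0.5 minus the same for the WT mean. Blue is below WT and red above; the VPRP columns are blue for most rows, while ATF3, DDIT3 and PPP1R15A have red cells in p300 sgHBB or VPRP non-target.

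Of the 21 genes, 8 were called lower than WT in each of the 5 fusion groups: CEBPB, CEBPG, PHGDH, SHMT2, SLC7A5, SLC3A2, SLC6A9 and STC2. Over all genes tested the share was 4.46%. The count ran from 6 to 9 when each library was left out in turn. WT had the highest group mean for 15 of the 21, against 21.9% of all genes. A VPRP group had the lowest mean for 18, namely VPRP sgHBB for 8 (16.4% of all genes) and VPRP non-target for 10 (23.2% of all genes). Against the trend, ATF3, DDIT3 and PPP1R15A were called lower than WT in some fusion groups and higher in others.

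Among the transcription factors, ATF4 itself was at 1296 and 1255 CPM in WT, 1284 and 1255 in p300 sgHBB, 933 and 1029 in VPR sgHBB, 987 and 949.7 in VPRP non-target, 839 and 925 in p300 D1399Y sgHBB and 694 and 659.9 in VPRP sgHBB. WT and p300 libraries overlapped, and the libraries of the other 4 groups lay below both. The mean was 1275 ± 28.6 CPM in WT and 677 ± 23.8 CPM in VPRP sgHBB (log2 -0.91, SE 0.0722, adjusted p = 5.53e-13). VPR sgHBB (log2 -0.38), VPRP non-target (log2 -0.40) and p300 D1399Y sgHBB (log2 -0.53) were also called lower, and the p300 difference was log2 -0.01 (SE 0.0714, adjusted p = 0.952).

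ATF3, a stress-induced factor that ATF4 is known to activate, had a pattern of its own. It was at 532 and 527 CPM in p300 sgHBB, 111 and 99.2 in WT, 113 and 114 in VPRP non-target, 76.8 and 70.8 in VPRP sgHBB, 47.6 and 53.6 in VPR sgHBB and 41.4 and 44.2 in p300 D1399Y sgHBB. The p300 libraries stood far above all others, VPRP non-target lay just above WT, and the remaining groups below it. The p300 mean of 529.5 ± 3.07 CPM was 5.04-fold the WT mean of 105 ± 8.25 (log2 2.33, SE 0.0761, adjusted p = 4.67e-23). With the catalytic substitution the gene was called lower than WT (log2 -1.30, SE 0.0817, adjusted p = 1.33e-14). VPRP sgHBB (log2 -0.51) and VPR sgHBB (log2 -1.05) were lower as well, and VPRP non-target differed by log2 0.11 (adjusted p = 0.197). The p300 sgHBB and VPRP non-target groups had similar EP300 levels and a several-fold gap in ATF3. They also differ in the VPR domains, the guide and the side of the MAGEA10 split, which cannot be told apart. Whether the EP300 level has a part in ATF3 was not tested.

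DDIT3 encodes CHOP, the factor linked to cell death after long stress, and was measured from few reads, 15 to 201 per library. It was at 4.3 and 2.91 CPM in WT, 11.4 and 11.1 in VPRP non-target, 10.5 and 10.8 in p300 sgHBB, 5.48 and 5.36 in VPRP sgHBB, 1.08 and 1.3 in VPR sgHBB and 1.16 and 1.04 in p300 D1399Y sgHBB. WT lay in the middle, and its libraries overlapped those of no other group. DDIT3 rose in VPRP non-target (3.13-fold, log2 1.65, SE 0.203, adjusted p = 1.49e-08) and in p300 sgHBB (2.96-fold, log2 1.56, SE 0.204, adjusted p = 1.04e-07), and it fell in VPR sgHBB (log2 -1.60) and p300 D1399Y sgHBB (log2 -1.70). In VPRP sgHBB it was called higher (log2 0.59, adjusted p = 0.021), but the call ended on leaving out WT replicate 2 (log2 0.33, adjusted p = 0.291) or VPRP sgHBB replicate 1 (adjusted p = 0.0705) or 2 (0.0662), and under DESeq2 (0.0514). Without WT replicate 1 the value was log2 0.89. In RefSeq's GRCh38.p14 annotation DDIT3 overlaps MARS1, and the strand setting of the counting is not given in the sources used here, so reads could be shared. MARS1 was at 322 and 318 CPM in WT, 307 and 314 in p300 sgHBB, and 232 and 225 in VPRP non-target. In VPR sgHBB, where DDIT3 fell, MARS1 was higher than WT by log2 0.26. These levels are far above those of DDIT3, so they cannot show whether reads were shared, which was not tested.

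**Figure D2:**
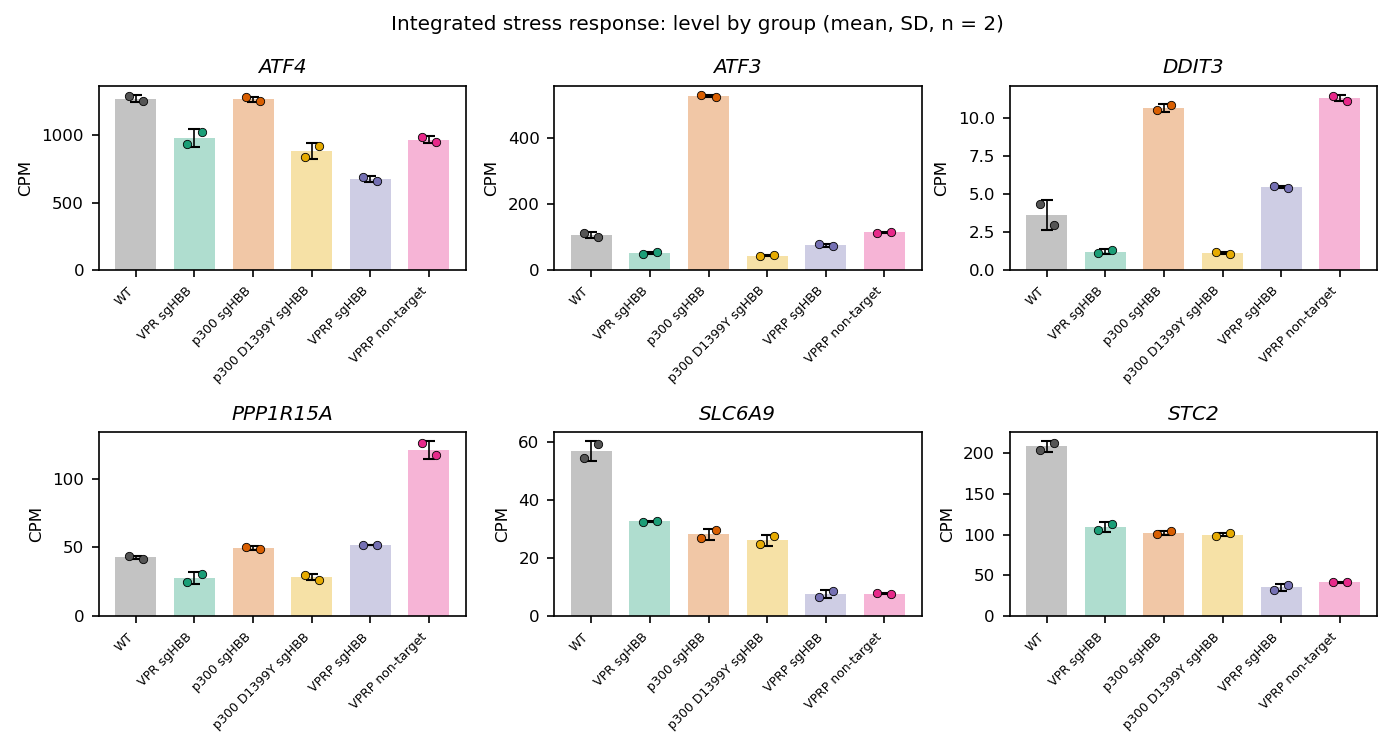
Level in CPM (vertical axes from 0) of 6 stress response genes in the 6 groups; bars are means, error bars SD, points the 2 libraries. ATF3 stands out in p300 sgHBB at 529.5 CPM, PPP1R15A in VPRP non-target at 121 CPM, and SLC6A9 and STC2 step down from WT to the VPRP groups.

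CEBPG and CEBPB, partners of ATF4 in binding DNA, were lower than WT in each fusion group. CEBPG was at 105 ± 3.97 CPM in WT, 83.8 ± 2.77 in p300 sgHBB, 63.4 ± 1.8 in VPRP sgHBB and 61.3 ± 0.2 in VPRP non-target, with both VPRP groups about equally low (log2 -0.73 and -0.78). CEBPB was at 62 ± 1.49 CPM in WT, 37.1 ± 2.08 in VPRP sgHBB and 37.1 ± 2.94 in VPRP non-target, each log2 -0.74. Its smaller differences were less secure: in p300 sgHBB (log2 -0.28, adjusted p = 0.00874) the call ended on leaving out WT replicate 1 (adjusted p = 0.068), and in p300 D1399Y sgHBB (log2 -0.26, adjusted p = 0.0225) without WT replicate 1 (adjusted p = 0.135), WT replicate 2 (0.0652) or p300 D1399Y replicate 2 (0.251). TRIB3, a pseudokinase that feeds back on ATF4, was at 46.7 ± 1.4 CPM in WT and fell in VPRP sgHBB to 25.7 and 22.3 CPM (log2 -0.96) and in VPRP non-target to 28.7 and 30.4 CPM (log2 -0.66). In the other 3 fusion groups it was at 41.1 to 47.2 CPM, with no call. NUPR1, a small stress-induced chromatin factor, had 1 to 73 reads per library. It was at 4.08 ± 0.915 CPM in WT, 1 ± 0.221 in VPRP sgHBB (log2 -2.0, adjusted p = 5.25e-05) and 0.362 ± 0.433 in VPRP non-target (log2 -3.52, adjusted p = 9.56e-08). The VPRP non-target value rests on 11 reads and 1 read, and without its replicate 1 it was log2 -6.05. NUPR1 was also called lower in VPR sgHBB (log2 -1.27, adjusted p = 0.0105), a call that ended on leaving out WT replicate 2 (adjusted p = 0.132) or VPR replicate 1 (0.079).

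The 5 enzymes of amino acid and folate metabolism were all called lower in both VPRP groups and in p300 D1399Y sgHBB. In VPR sgHBB 3 of 5 were called lower, and in p300 sgHBB also 3 of 5. Of all genes tested 28% were called lower in VPRP sgHBB, 28.5% in VPRP non-target and 14.5% in p300 D1399Y sgHBB. The shares were 11.5% in VPR sgHBB and 21.6% in p300 sgHBB. Asparagine synthetase, ASNS, was at 462 and 452 CPM in WT, 414 and 410.0 in p300 sgHBB, 370.2 and 386 in VPR sgHBB, 265 and 270.4 in p300 D1399Y sgHBB, 219.8 and 201 in VPRP sgHBB and 184 and 191 in VPRP non-target. The libraries of the 6 groups did not overlap. ASNS fell 2.17-fold in VPRP sgHBB (log2 -1.12, SE 0.0685, adjusted p = 7.23e-16) and 2.44-fold in VPRP non-target (log2 -1.28), and its difference in p300 sgHBB missed the threshold (log2 -0.15, adjusted p = 0.0658). PSAT1 and PHGDH, enzymes of serine synthesis, went apart in VPR sgHBB. PSAT1 was at 502 ± 9.07 CPM in WT, 514 ± 43.9 in VPR sgHBB and 461 ± 1.88 in p300 sgHBB, with no call in either, and fell to 246 ± 7.78 in VPRP sgHBB (log2 -1.03) and 207 ± 1.92 in VPRP non-target (log2 -1.28). PHGDH fell from 1037 ± 29.4 CPM in WT to 509 ± 4.44 in VPRP non-target (log2 -1.03), 634 ± 44.7 in VPRP sgHBB (log2 -0.71) and 771 ± 13.9 in p300 sgHBB (log2 -0.43). In VPR sgHBB it was at 882 ± 57.2 CPM (log2 -0.23, adjusted p = 0.0131), a call that ended on leaving out WT replicate 1 (adjusted p = 0.121) or VPR replicate 2 (0.129). The mitochondrial folate enzymes SHMT2 and MTHFD2 were at 742 ± 13.2 and 247 ± 0.861 CPM in WT. SHMT2 fell to 416 ± 39.4 CPM in VPRP sgHBB and 427 ± 5.62 in VPRP non-target, and was lower in the other 3 fusion groups as well (log2 -0.38 to -0.73). MTHFD2 fell to 133 ± 4.3 and 125 ± 7.15 CPM in the VPRP groups and was not called in VPR sgHBB (log2 -0.12, adjusted p = 0.23). Each overlaps another gene in the annotation (COXFA4L2 and SLC4A5), with which reads could be shared.

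All 4 amino acid transporters were called lower in both VPRP groups, with medians of log2 -1.37 (VPRP sgHBB) and -1.56 (VPRP non-target). Of all genes tested 28% and 28.5% were called lower in these groups, in this order. SLC6A9, the glycine transporter GLYT1, was at 54.4 and 59.3 CPM in WT, 32.5 and 32.6 in VPR sgHBB, 26.8 and 29.6 in p300 sgHBB, 24.9 and 27.5 in p300 D1399Y sgHBB, 6.65 and 8.62 in VPRP sgHBB and 7.84 and 7.65 in VPRP non-target. The libraries lay at 3 levels without overlap, WT, then VPR sgHBB, p300 sgHBB and p300 D1399Y sgHBB, then both VPRP groups. The fall was 7.39-fold in VPRP sgHBB (log2 -2.89, SE 0.122, adjusted p = 3.17e-20) and 7.34-fold in VPRP non-target (log2 -2.88, SE 0.121, adjusted p = 3.04e-20). It was 1.75-fold in VPR sgHBB (log2 -0.80), 2.02-fold in p300 sgHBB (log2 -1.01) and 2.17-fold in p300 D1399Y sgHBB (log2 -1.12). SLC6A9 overlaps CCDC24 in the annotation. SLC7A11, the light chain of the cystine and glutamate exchanger, was at 48.8 ± 1.34 CPM in WT and 45.7 ± 1.71 in p300 sgHBB, with no call between them (log2 -0.10, adjusted p = 0.503). It fell to 33.2 ± 2.3 CPM in p300 D1399Y sgHBB (log2 -0.56), 27.3 ± 1.12 in VPR sgHBB (log2 -0.84), 13.8 ± 1 in VPRP sgHBB (log2 -1.82) and 9.63 ± 3.23 in VPRP non-target (log2 -2.33). SLC7A5 and SLC3A2, the light and heavy chains of the LAT1 exchanger of large neutral amino acids, were lower in each fusion group. SLC7A5 went from 523 ± 27.9 CPM in WT to 285 ± 4.58 in VPRP sgHBB (log2 -0.87) and SLC3A2 from 321 ± 9.08 to 171 ± 12.8 CPM (log2 -0.91). SLC3A2, which also pairs with SLC7A11, stood at 186 ± 0.797 CPM in VPRP non-target, while SLC7A5 was at 319 ± 28.5 CPM in p300 sgHBB (log2 -0.72) and 356 ± 0.178 CPM in VPRP non-target (log2 -0.56).

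Of the 5 other effectors, STC2, the secreted glycoprotein stanniocalcin-2, changed most. It was at 203 and 212 CPM in WT, 105 and 113 in VPR sgHBB, 101 and 104 in p300 sgHBB, 98.4 and 102 in p300 D1399Y sgHBB, 41.4 and 42.1 in VPRP non-target and 32.2 and 38.2 in VPRP sgHBB. As for SLC6A9, WT was highest, VPR sgHBB, p300 sgHBB and p300 D1399Y sgHBB lay close to each other, and the VPRP groups were lowest. STC2 fell 5.88-fold in VPRP sgHBB (log2 -2.56, SE 0.0828, adjusted p = 2.79e-23) and 4.98-fold in VPRP non-target (log2 -2.32). DDIT4, an inhibitor of mTORC1 known as REDD1, and CHAC1, a glutathione-degrading enzyme, shared another order. DDIT4 was at 76.2 ± 11.9 CPM in WT and 72 ± 3.05 in p300 sgHBB, then 48.3 ± 1.95 in VPR sgHBB, 39 ± 0.233 in p300 D1399Y sgHBB, 26.7 ± 1.44 in VPRP non-target and 25 ± 4.83 in VPRP sgHBB. CHAC1 was at 30.2 ± 0.253 CPM in WT and 29.3 ± 1.88 in p300 sgHBB, then 17.9 ± 0.843, 14 ± 0.00344, 9.53 ± 0.782 and 10.5 ± 0.725 CPM in the same order of groups. For both genes the p300 and WT libraries overlapped (log2 -0.08 and -0.04, adjusted p = 0.527 and 0.768), and both fell in the other 4 groups. PPP1R15A encodes GADD34, the phosphatase subunit that reverses eIF2 phosphorylation. It was at 126 and 117 CPM in VPRP non-target, 51.5 and 51.7 in VPRP sgHBB, 50.4 and 48.8 in p300 sgHBB, 43.5 and 41.9 in WT, 24.8 and 30.9 in VPR sgHBB and 29.8 and 26.6 in p300 D1399Y sgHBB. It rose 2.83-fold in VPRP non-target (log2 1.5, SE 0.0892, adjusted p = 3.41e-16) and fell in VPR sgHBB (log2 -0.62) and p300 D1399Y sgHBB (log2 -0.59). Its call in VPRP sgHBB (log2 0.27, adjusted p = 0.0117) was lost without VPRP sgHBB replicate 2 (adjusted p = 0.0603) or WT replicate 2 (0.0908). VLDLR, a lipoprotein receptor, ranged from 3.82 to 7.48 CPM over all libraries. It was called in VPRP non-target against WT (log2 -0.67, adjusted p = 0.0145), a call lost without VPRP non-target replicate 2 (adjusted p = 0.0723) or WT replicate 1 (0.115), and in no other comparison made here.

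The ER list moved the other way. In VPRP sgHBB 12 of 17 genes were called higher than WT and 1 lower, and in VPRP non-target 10 higher and 3 lower. There were 9 higher and 0 lower in VPR sgHBB, 10 and 0 in p300 sgHBB, and 7 and 2 in p300 D1399Y sgHBB. The shares of all genes called in each direction are those given with the stress response list. The median log2 difference of the 17 was 0.47, 0.51, 0.21, 0.36 and 0.11 in this order of groups. Library medians relative to WT were 0.44 and 0.47 in VPRP sgHBB, 0.50 and 0.51 in VPRP non-target, 0.24 and 0.27 in VPR sgHBB, 0.39 and 0.27 in p300 sgHBB and 0.13 and 0.08 in p300 D1399Y sgHBB. Chaperones and foldases carried the counts, with 10 of 10 higher in VPRP sgHBB, 8 in VPRP non-target, 9 in VPR sgHBB, 7 in p300 sgHBB and 6 in p300 D1399Y sgHBB, and none lower. HSPA5, CALR, PDIA4, DNAJC3, SDF2L1 and MANF were called higher in each of the 5 fusion groups, where 4.25% of all genes were. VPRP sgHBB had the highest group mean for 10 of the 17 (15.3% of all genes).

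**Figure D3:**
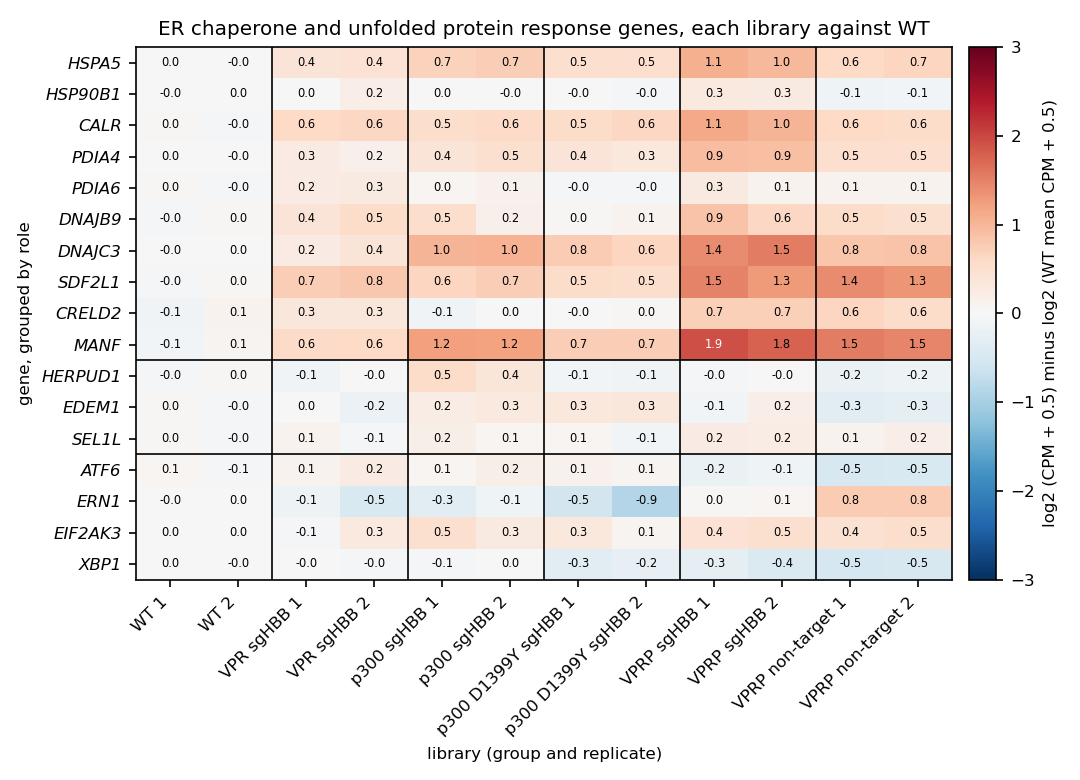
Each cell is the log2 level of an ER gene (rows, grouped by role) in a library (columns), as log2 of CPM plus 0.5 minus the same for the WT mean. The rows of HSPA5, CALR, SDF2L1 and MANF are red across the fusion columns, and so are PDIA4 and DNAJC3, which are pale in VPR sgHBB. HSP90B1 and PDIA6 stay pale, CRELD2 is pale in both p300 groups and DNAJB9 in p300 D1399Y sgHBB; the degradation and sensor rows are mixed.

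HSPA5, the ER Hsp70 BiP that binds the sensors at rest, was at 439.7 and 427 CPM in WT, 566 and 584 in VPR sgHBB, 611 and 618 in p300 D1399Y sgHBB, 659 and 682 in VPRP non-target, 694 and 722 in p300 sgHBB and 913 and 854 in VPRP sgHBB. No libraries of different groups overlapped, and WT was lowest. The increase was 2.04-fold in VPRP sgHBB (log2 1.03, SE 0.0683, adjusted p = 6.86e-15), 1.63-fold in p300 sgHBB (log2 0.71), 1.55-fold in VPRP non-target (log2 0.63), 1.42-fold in p300 D1399Y sgHBB (log2 0.50) and 1.33-fold in VPR sgHBB (log2 0.41). Calreticulin, CALR, a lectin chaperone of glycoproteins, behaved more evenly. It was at 516 and 491 CPM in WT and 1102 and 1023 in VPRP sgHBB, and between 724 and 779 CPM in the 8 libraries of the other 4 fusion groups. Those 4 groups differed from WT by log2 0.54 to 0.60, and VPRP sgHBB by log2 1.08 (SE 0.0696, adjusted p = 3.32e-15). MANF, a secreted ER-resident factor that binds BiP, was the ER gene with the largest rise in VPRP sgHBB. It went from 66 and 74.6 CPM in WT to 105 and 107 in VPR sgHBB, 117 and 118 in p300 D1399Y sgHBB, 166 and 163 in p300 sgHBB, 206 and 194 in VPRP non-target and 268 and 240.4 in VPRP sgHBB. The groups did not overlap, and the change was 3.61-fold in VPRP sgHBB (log2 1.85, SE 0.0768, adjusted p = 1.85e-20) and 1.51-fold in VPR sgHBB (log2 0.59).

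DNAJC3, the co-chaperone p58IPK that also restrains eIF2 kinases, was at 37.3 ± 0.201 CPM in WT, 46.7 ± 3.25 in VPR sgHBB, 61.1 ± 3.89 in p300 D1399Y sgHBB, 67.3 ± 0.383 in VPRP non-target, 77 ± 0.494 in p300 sgHBB and 105 ± 5.69 in VPRP sgHBB. It rose 2.81-fold in VPRP sgHBB (log2 1.49) and 2.06-fold in p300 sgHBB (log2 1.05). The smallest of its differences, in VPR sgHBB (log2 0.32, adjusted p = 0.00604), was no longer called on leaving out VPR replicate 2 (adjusted p = 0.0824). SDF2L1, which works with BiP and its J-domain partners, was at 59.5 ± 2.63 CPM in WT and about equally high in VPRP sgHBB (156 ± 17.4, log2 1.39) and VPRP non-target (155 ± 7.66, log2 1.38). It was between in VPR sgHBB, p300 sgHBB and p300 D1399Y sgHBB at 102 ± 3.41, 96.6 ± 4.63 and 86.1 ± 1.04 CPM. PDIA4, a disulfide isomerase also called ERp72, went from 282 ± 4.94 CPM in WT to 531 ± 9.87 in VPRP sgHBB (log2 0.91), 400.4 ± 1.79 in VPRP non-target, 380.4 ± 15.6 in p300 sgHBB and 360.1 ± 8.69 in p300 D1399Y sgHBB. In VPR sgHBB it was at 326 ± 15.5 CPM (log2 0.21, adjusted p = 0.0229), and that call was lost under 7 of the alternatives tried, among them leaving out VPR replicate 1 (adjusted p = 0.132), p300 D1399Y replicate 1 (0.0602), either WT library (0.0825 and 0.157) or either VPRP non-target library (0.067 and 0.0677).

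The remaining foldases changed in fewer groups. CRELD2, an ER factor with isomerase activity, was at 57.9 ± 5.75 CPM in WT, 56 ± 3.32 in p300 sgHBB and 58.2 ± 1.58 in p300 D1399Y sgHBB, with overlapping libraries. It rose to 95.4 ± 0.146 CPM in VPRP sgHBB (log2 0.72), 88.1 ± 3.75 in VPRP non-target (log2 0.60) and 73.7 ± 0.293 in VPR sgHBB (log2 0.35), the last call ending when WT replicate 1 was left out (adjusted p = 0.0904). CRELD2 was thus called in each of the 3 groups that carried the VPR domains and in neither group with p300 alone. DNAJB9, the J-domain protein ERdj4, rose from 14 ± 0.6 CPM in WT to 23.9 ± 2.8 in VPRP sgHBB (log2 0.76) and 20.2 ± 0.616 in VPRP non-target (log2 0.53). Its calls in VPR sgHBB and p300 sgHBB (log2 0.47 and 0.36) ended on leaving out WT replicate 1 (adjusted p = 0.0809 and 0.143), the VPR call also on leaving out VPR replicate 2 (0.0894) and the p300 call WT replicate 2 (0.0637). The p300 value was log2 0.16 without p300 replicate 1 and log2 0.54 without p300 replicate 2, and its call was also lost under DESeq2 (adjusted p = 0.0691). HSP90B1, the ER Hsp90 GRP94, has 2 ERSE matches in the window printed above and changed little. It was at 554 and 558 CPM in WT, 682 and 672 in VPRP sgHBB and 507 to 641 in the other 8 libraries, with a call in VPRP sgHBB alone (log2 0.29, adjusted p = 0.000756). PDIA6, a disulfide isomerase that acts on IRE1, was at 288 ± 8.14 CPM in WT, 345 ± 4.9 in VPR sgHBB (log2 0.26, adjusted p = 0.00555) and 329 ± 26.1 in VPRP sgHBB (log2 0.19, adjusted p = 0.0189). Both calls ended on leaving out WT replicate 2 (adjusted p = 0.0861 and 0.153), the VPRP call also on leaving out VPRP sgHBB replicate 1 (log2 0.10, adjusted p = 0.306). PDIA6 overlaps ATP6V1C2 in the annotation.

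**Figure D4:**
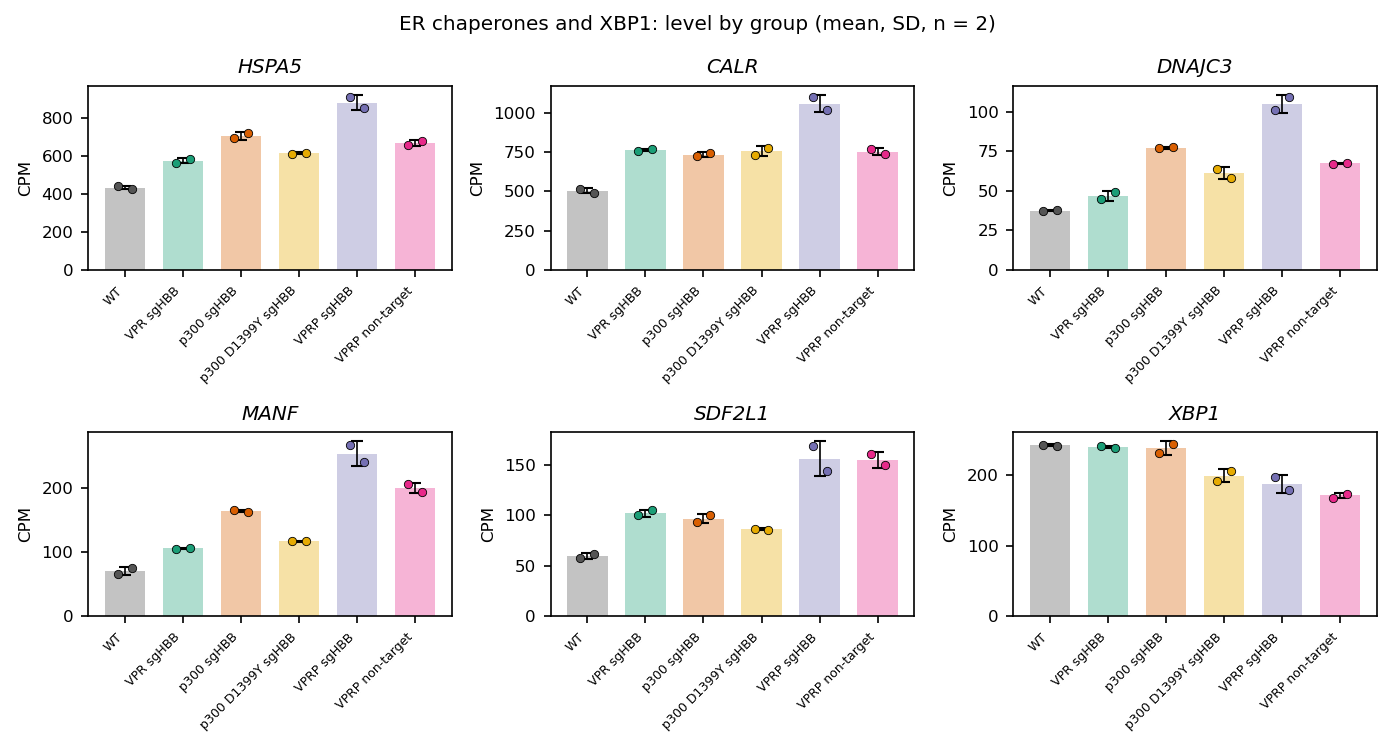
Level in CPM (vertical axes from 0) of 5 ER chaperone genes and XBP1 in the 6 groups; bars are means, error bars SD, points the 2 libraries. WT is lowest and VPRP sgHBB highest for HSPA5, CALR, DNAJC3 and MANF, SDF2L1 is equally high in both VPRP groups, and XBP1 is lower in p300 D1399Y sgHBB and the VPRP groups.

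ER-associated degradation, which removes misfolded proteins to the cytosol, did not follow the chaperones. HERPUD1, which organises the degradation complex and is a target of both pathways, was at 99.8 and 88.2 CPM in p300 sgHBB, 66.2 and 70.6 in WT, 67.1 and 67.8 in VPRP sgHBB, 63.8 and 67.5 in VPR sgHBB, 65.1 and 63.4 in p300 D1399Y sgHBB and 59.1 and 61.3 in VPRP non-target. The p300 libraries were higher than all others, which lay close together. It rose 1.37-fold in p300 sgHBB (log2 0.46, SE 0.0796, adjusted p = 1.36e-05) and was not called against WT elsewhere. EDEM1, which draws misfolded glycoproteins into degradation, was at 44.5 ± 1.16 CPM in WT. It was called higher in p300 D1399Y sgHBB (56 ± 0.321 CPM, log2 0.33) and p300 sgHBB (53.1 ± 2.03 CPM, log2 0.26) and lower in VPRP non-target (36.4 ± 0.836 CPM, log2 -0.29). All 3 calls rest on small differences, and the p300 call was lost under DESeq2 (adjusted p = 0.0651) and without a low-count filter (0.052). The p300 D1399Y call ended on leaving out WT replicate 2 (adjusted p = 0.0666) or p300 D1399Y replicate 1 (0.0556), the p300 call either WT library (0.064 and 0.136) or p300 replicate 2 (0.146), and the VPRP non-target call WT replicate 1 (0.0549). SEL1L, the scaffold of the HRD1 ligase, ranged from 65.5 to 82.5 CPM over all libraries, and its call in VPRP sgHBB (log2 0.24, adjusted p = 0.0133) was lost without VPRP sgHBB replicate 1 (adjusted p = 0.0573) or 2 (0.0616) or WT replicate 2 (0.121).

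The sensors and their factors also went separate ways. XBP1, whose spliced mRNA makes the factor downstream of IRE1, was at 243 and 241 CPM in WT, 241 and 238 in VPR sgHBB, 231 and 244 in p300 sgHBB, 192 and 205 in p300 D1399Y sgHBB, 197 and 178 in VPRP sgHBB and 168 and 173 in VPRP non-target. The first 3 groups were level and the last 3 lower. XBP1 fell in VPRP sgHBB (log2 -0.37, SE 0.0697, adjusted p = 2.38e-05), in VPRP non-target (log2 -0.51, adjusted p = 1.49e-07) and in p300 D1399Y sgHBB (log2 -0.29, adjusted p = 0.00178). HSPA5, CALR, PDIA4, DNAJC3, SDF2L1 and MANF were called higher in the same groups. HSP90B1 and PDIA6 were not called in VPRP non-target or p300 D1399Y sgHBB, nor were CRELD2 and DNAJB9 in p300 D1399Y sgHBB. Gene counts do not separate spliced from unspliced XBP1. ERN1, the IRE1 sensor, was at 15.1 ± 0.196 CPM in WT and 15.7 ± 0.148 in VPRP sgHBB, rose to 25.9 ± 0.122 in VPRP non-target (log2 0.78, adjusted p = 6.09e-06) and fell to 9.09 ± 1.61 in p300 D1399Y sgHBB (log2 -0.73, adjusted p = 0.000266). ATF6 was at 73.2 ± 3.94 CPM in WT and lower in VPRP non-target at 52.7 ± 0.762 (log2 -0.48, adjusted p = 6.86e-06), with no call against WT in the other 4 groups. EIF2AK3, encoding PERK, was at 12.4 ± 0.0829 CPM in WT and was called higher in VPRP non-target (17.6 ± 0.821, log2 0.51), VPRP sgHBB (17.2 ± 0.266, log2 0.47) and p300 sgHBB (16.3 ± 1.76, log2 0.39). The p300 call ended on leaving out p300 replicate 1 (log2 0.28), WT replicate 1 (log2 0.38) or WT replicate 2 (log2 0.40), and under DESeq2 (adjusted p = 0.06).

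The remaining 4 comparisons set fusions against each other. WT libraries are in neither group compared but entered the shared estimate of the spread. VPRP sgHBB against p300 sgHBB, with the same guide target and MAGEA10 near 0 in both, asks what the VPR domains added. EP300 reads were 3-fold lower in VPRP sgHBB. Here 18 of the 21 stress response genes were called lower and 0 higher, with a median of -0.91, where 13.7% of all genes were lower and 14.3% higher. ATF3 was 7.18-fold lower (log2 -2.84, SE 0.078, adjusted p = 1.24e-24), SLC6A9 3.66-fold, SLC7A11 3.3-fold, DDIT4 and STC2 2.9-fold each and CHAC1 2.79-fold. ATF4 was lower by log2 -0.91 (SE 0.0722, adjusted p = 6.56e-12). Of the ER list, 9 were higher and 3 lower: CRELD2 (log2 0.77), SDF2L1 (log2 0.69), MANF (log2 0.63) and CALR (log2 0.53) were higher, and HERPUD1 (log2 -0.48) and XBP1 (log2 -0.35) lower. The third, ATF6 (log2 -0.27, adjusted p = 0.00922), lost its call without VPRP sgHBB replicate 1 (adjusted p = 0.0766) or p300 replicate 2 (0.132). The smaller differences of 4 members also rested on single libraries. PHGDH (log2 -0.28) had an adjusted p of 0.0605 without VPRP sgHBB replicate 2, and SHMT2 (log2 -0.27) had log2 -0.18 and 0.125 without it and 0.0587 without p300 replicate 2. NUPR1 (log2 -1.32) had an adjusted p of 0.0993 without VPRP sgHBB replicate 1 and 0.122 without p300 replicate 2, and DNAJB9 (log2 0.40) had 0.224 without the former and 0.351 (log2 0.22) without the latter.

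The p300 fusions with and without the catalytic substitution both had MAGEA10 near 0, and EP300 reads were 5.78-fold higher without the substitution. Of the stress response genes, 9 were higher and 1 lower in p300 sgHBB than in p300 D1399Y sgHBB (all genes 15.4% and 15%), with a median of 0.17. ATF3 was 12.4-fold higher (log2 3.63, SE 0.0825, adjusted p = 1.13e-27) and DDIT3 9.61-fold higher (log2 3.26, SE 0.249, adjusted p = 2.81e-12). CHAC1 (log2 1.06), DDIT4 (log2 0.89), PPP1R15A (log2 0.81), ASNS (log2 0.62) and ATF4 (log2 0.53) were higher too. STC2 and SLC6A9, by contrast, differed by log2 0.04 (SE 0.0771, adjusted p = 0.768) and log2 0.11 (SE 0.109, adjusted p = 0.487), with overlapping libraries. In the ER list 6 were higher and 0 lower, with HERPUD1 at log2 0.55 and MANF at log2 0.49. The ER count fell to 3 without p300 D1399Y replicate 2: HSPA5 (log2 0.20, adjusted p = 0.0202) then had an adjusted p of 0.0884, DNAJC3 (log2 0.33) 0.0545 and ERN1 (log2 0.49) 0.194. HSPA5 missed the threshold whichever of the 4 libraries was left out (adjusted p = 0.059 to 0.163), ERN1 also without p300 replicate 2 (0.142), and XBP1 (log2 0.26) without p300 D1399Y replicate 1 (0.087) or p300 replicate 2 (0.0827). The lower gene was SLC7A5 (log2 -0.25), whose call ended on leaving out p300 D1399Y replicate 1 (adjusted p = 0.109) or p300 replicate 1 (0.219).

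VPRP sgHBB against VPR sgHBB sets VPR with p300 against VPR without it, and MAGEA10 differed between them as described. Stress response genes were lower for 16 and higher for 3 (all genes 25.1% and 24.7%), with a median of -0.54. The 3 higher were DDIT3 (4.55-fold, log2 2.19), PPP1R15A (log2 0.89) and ATF3 (log2 0.54). SLC6A9 (log2 -2.08) and STC2 (log2 -1.63) were the lowest, followed by PSAT1 (log2 -1.06), which VPR sgHBB alone had left at the WT level. Of the ER genes, 11 were higher and 2 lower, led by MANF (log2 1.26) and DNAJC3 (log2 1.17). The 2 lower were XBP1 (log2 -0.36) and ATF6 (log2 -0.34). The smallest differences here did not hold without each library. CEBPG (log2 -0.26) had an adjusted p of 0.065 without VPRP sgHBB replicate 2. HSP90B1 (log2 0.18) had log2 0.08 and an adjusted p of 0.414 without VPR replicate 1 and log2 0.28 without VPR replicate 2, and its adjusted p was 0.0504 and 0.0501 without either WT library. SEL1L (log2 0.21) had log2 0.12 and 0.301 without VPR replicate 2, and ERN1 (log2 0.35) log2 0.20 and 0.35 without it and log2 0.53 without VPR replicate 1. EIF2AK3 (log2 0.35) had log2 0.18 and an adjusted p of 0.395 without VPR replicate 1 and log2 0.53 without VPR replicate 2. The calls of these last 4 also ended on leaving out either VPRP sgHBB library. Those of ERN1 and EIF2AK3 ended under DESeq2 too (adjusted p = 0.0595 and 0.0587).

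VPRP with the HBB guide was last set against VPRP with the non-targeting guide. MAGEA10 differed between these groups too, and VPRP sgHBB had 3.13-fold fewer EP300 reads. Of the stress response genes 7 were lower and 4 higher (all genes 14.4% and 14.9%), with a median of -0.01, and 3 of the 4 higher and 2 of the 7 lower lost their call under an alternative. PPP1R15A was 2.35-fold lower (log2 -1.23, SE 0.0871, adjusted p = 3.39e-13), DDIT3 2.08-fold (log2 -1.06), ATF3 1.54-fold (log2 -0.62) and ATF4 1.43-fold (log2 -0.52). SLC6A9 (log2 -0.01), CEBPB (log2 0.00), SHMT2 (log2 -0.04) and DDIT4 (log2 -0.10) had overlapping libraries. PHGDH was higher (log2 0.32, adjusted p = 0.000822). NUPR1 (log2 1.51, adjusted p = 0.0457), which rests on 1 read in VPRP non-target replicate 2, had log2 0.61 and an adjusted p of 0.508 without it, and 4.03 without the other library. SLC7A11 (log2 0.51) had log2 0.24 and an adjusted p of 0.301 without VPRP non-target replicate 1, log2 0.93 without replicate 2, and 0.0652 without VPRP sgHBB replicate 2. PSAT1 (log2 0.25) had an adjusted p of 0.0529 without VPRP sgHBB replicate 1. STC2 (log2 -0.24) and TRIB3 (log2 -0.31) lost their calls on leaving out either VPRP non-target library (adjusted p = 0.145 and 0.194 for STC2, 0.0673 and 0.19 for TRIB3). STC2 also had an adjusted p of 0.0513 and 0.0507 without either WT library and 0.0635 without p300 D1399Y replicate 1. It had log2 -0.12 and an adjusted p of 0.435 without VPRP sgHBB replicate 1, and TRIB3 log2 -0.18 and 0.309 without VPRP sgHBB replicate 2. In the ER list 8 were higher and 1 lower with the HBB guide. DNAJC3 (log2 0.64), CALR (log2 0.49), PDIA4 (log2 0.41), HSPA5 (log2 0.40) and HSP90B1 (log2 0.39) were higher and ERN1 lower (log2 -0.72, adjusted p = 5.93e-05), while SDF2L1 differed by log2 0.01 (SE 0.076, adjusted p = 0.951). EDEM1 (log2 0.36) had log2 0.22 and an adjusted p of 0.155 without VPRP sgHBB replicate 2.

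**Figure D5:**
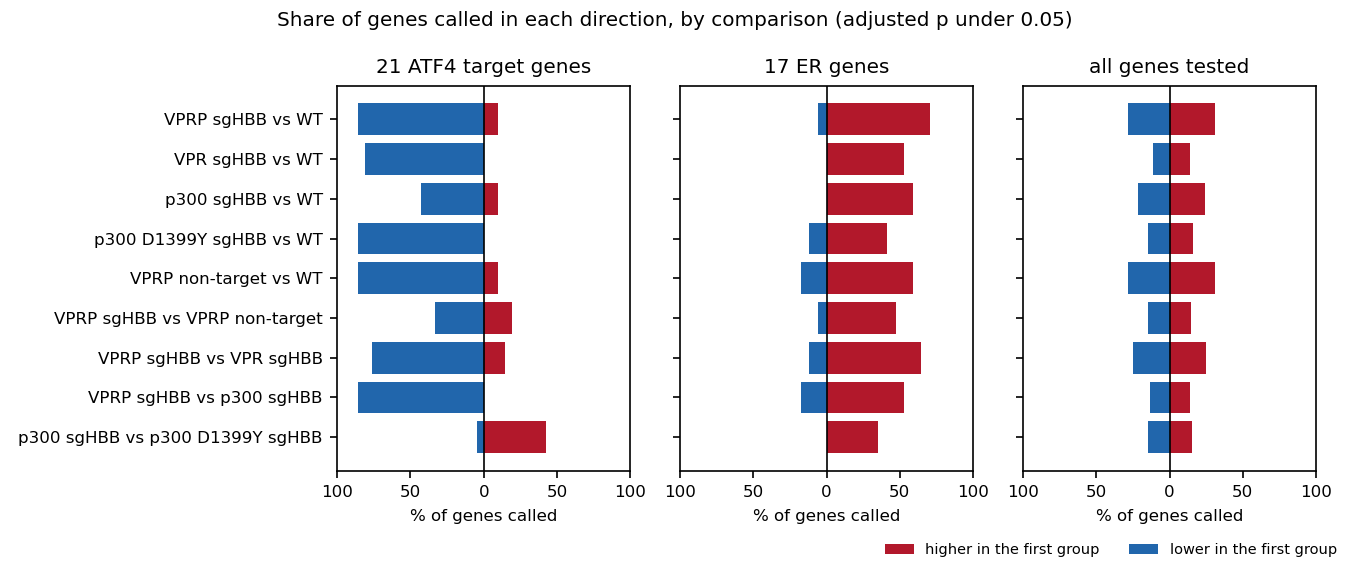
Share in percent of the 21 stress response genes, the 17 ER genes and all 16694 genes called higher (red, right) or lower (blue, left) in the first group of each comparison, at an adjusted p under 0.05. The blue stress response bars cover most of the 21 genes in 6 of the 9 comparisons, p300 sgHBB against p300 D1399Y sgHBB is the comparison with more red than blue, and the ER bars are mostly red.

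Genes of the same pathways outside the list were read from lists chosen by function. Of 24 further ATF4 targets 22 were tested. These and the lists below were chosen with results of these data known. In VPRP sgHBB against WT 16 were lower and 3 higher with a median of -0.65, in VPRP non-target 15 and 2, in VPR sgHBB 10 and 4, in p300 sgHBB 12 and 3, and in p300 D1399Y sgHBB 12 and 2. Of all genes tested 28%, 28.5%, 11.5%, 21.6% and 14.5% were called lower and 31.1%, 31.2%, 13.8%, 24.5% and 15.7% higher in this order of groups, where the synthetase counts given next can be read against them too. The transporter SLC43A1, which carries large neutral amino acids, was at 62.9 CPM in WT, 37.4 in VPR sgHBB, 28.3 in p300 D1399Y sgHBB, 20.9 in p300 sgHBB, 12.7 in VPRP sgHBB and 12.5 in VPRP non-target, falling in each group (log2 -2.31 in VPRP sgHBB). SLC38A2, the amino acid transporter SNAT2, fell from 335 to 126 CPM in VPRP sgHBB (log2 -1.42). TNFRSF10B, the death receptor DR5, a target of CHOP and also of p53, was called higher in p300 D1399Y sgHBB (log2 0.89), VPRP sgHBB (log2 0.65), VPR sgHBB (log2 0.45) and VPRP non-target (log2 0.17, adjusted p = 0.0461). The last call ended under several alternatives, among them leaving out VPRP non-target replicate 1 (log2 0.09) or 2 (adjusted p = 0.107). Cytosolic tRNA synthetases with the tRNA exporter XPOT, also known to depend on ATF4, were lower for 13 of 13 genes in VPRP sgHBB, 13 in VPRP non-target, 10 in p300 D1399Y sgHBB, 4 in p300 sgHBB and 3 in VPR sgHBB, where 1, MARS1, was higher (adjusted p = 0.0502 without WT replicate 2). Their falls were smaller, with a median of -0.43 in VPRP sgHBB and YARS1 lowest at log2 -0.88. Against p300 sgHBB, VPRP sgHBB was lower for 13 of 13 as well, with a median of -0.37.

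Of 28 further genes of ER folding and quality control, 14 were higher and 10 lower in VPRP sgHBB than in WT, a median of 0.16. In VPRP non-target the counts were 11 and 11, in VPR sgHBB 7 and 2 (all genes 13.8% and 11.5%), in p300 sgHBB 8 and 9, and in p300 D1399Y sgHBB 4 and 3. As shares of 28 the p300 D1399Y counts lie near those of all genes (15.7% higher and 14.5% lower). In p300 sgHBB the share called higher lies near that of all genes (24.5%), and the share called lower is above it (21.6%). In the VPRP groups more of the list was called both ways than of all genes (31.1% and 28%, and 31.2% and 28.5%). WFS1, the ER membrane protein wolframin, rose from 41.7 CPM in WT to 112 in VPRP sgHBB (log2 1.42) and 125 in VPRP non-target (log2 1.58). ERO1B, an oxidase that feeds the disulfide isomerases, rose from 25.8 to 55.4 CPM in VPRP sgHBB (log2 1.11). CANX, the membrane-bound relative of calreticulin, fell from 1672 to 1120.1 CPM in VPRP sgHBB (log2 -0.58), where CALR rose, and DERL3, a degradation channel component, fell from 25.2 to 15.3 CPM (log2 -0.72).

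Set against the promoter letters shown above, members with the same element did not move alike. The ERSE genes HSPA5 and CALR were higher in each fusion group, CRELD2 in the 3 with VPR domains, HSP90B1 in VPRP sgHBB, and XBP1 was higher in none and lower in 3. The CARE genes ASNS and CHAC1 were lowest in the VPRP groups, ATF3 was highest in p300 sgHBB, and SLC3A2 was lower in each fusion group. HERPUD1, with both kinds, was higher in p300 sgHBB alone, the group in which ATF3 was highest too. Of the 2 ERSE-II genes the other, SDF2L1, was higher in each fusion group. The H3K27ac samples of the series were not analysed here.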

How the data were processed

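RNA sequencing of 12 libraries in 6 groups was used; the H3K27ac samples were not analysed here. The deposited table holds whole-number counts per gene ID, not normalized, made by the authors; per the submitters' processing notes the tools include STAR 2.5, HTSeq 0.6.1 and DESeq2 1.24.0 and the build hg19, with no role stated. The annotation release and the strand setting were not stated there, which makes overlapping genes uncertain. Symbols matched 33626 of 48162 IDs.

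Genes were filtered with filterByExpr (minimum count 10, minimum total 15), scaled by TMM, and tested in R 4.3.3 with edgeR 4.0.16, quasi-likelihood, fitting 6 group means to all 12 libraries together. Of 9 comparisons each was adjusted by Benjamini-Hochberg over 16694 genes, with a threshold of 0.05. A log2 difference divided by the root of its F statistic gave its SE. CPM were scaled by the TMM factors, and library medians and heatmaps add 0.5 CPM before the log. Libraries held 14894558 to 17479523 counts, and the variance between replicates was 2.38 to 5.09 times the Poisson value, so no 2 libraries of a group were copies. A low count such as 1 read of NUPR1 has a wide counting error.

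The members and lists were chosen with earlier results of these data known. All 38 members are named; from each further list at most 2 genes each way are named per comparison, by size of change among called genes with a mean log2 CPM of at least 1. Values of part of the blood cell marker list are not reported here. Promoter letters were searched in RefSeq sequences (GRCh38.p14). Tested on simulated data for VPRP sgHBB against WT (15982 genes), the fit recovered 42.9% of the 1.5-fold, 83.3% of the 2-fold and 92.2% of the 4-fold changes, with 10 false calls. The simulation gave each unchanged gene the same mean in all groups and all genes a fixed dispersion. Few genes were changed in it (63, 66 and 64 tested, by fold), while many were called in the data. Its rates are therefore not error rates of the real comparison. As alternatives each library was left out, and fits were made without a filter, with a stricter filter, on the compared groups alone, with a replicate block, with RLE or upper-quartile factors, and with DESeq2 1.42.0. Figures were drawn with matplotlib 3.10.9.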

Additional observations from a re-analysis of the deposited data

How the results depend on the processing

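Of 342 pairs of a member and a comparison, 238 were called, and 198 of these kept the call and its direction under each alternative; 40 lost the call under at least 1, 26 of them only on leaving out a library, and 0 reversed. DESeq2 ended 6 calls, no low-count filter 7, the compared groups alone 6, a replicate block 1, and RLE factors, upper-quartile factors and the stricter filter 0. When each library was left out in turn, all genes called ran from 2548 to 4367 for VPR sgHBB against WT, 3185 to 5438 for VPRP sgHBB against VPRP non-target, 3089 to 5227 for VPRP sgHBB against p300 sgHBB, and 3193 to 5623 for p300 sgHBB against p300 D1399Y sgHBB, where ER members called ran from 3 to 6. A group left with 1 library was assumed to vary like the others. Members lower in all 5 fusion groups ran from 6 to 9 and ER members higher in all 5 from 5 to 6.

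The replicate numbers did not pair the libraries in a consistent way. Deviations of same-numbered libraries correlated at -0.28 to 0.204 over 15 pairs of groups and 10368 genes, above 0.1 in 3 pairs. Whether some groups were paired, or paired in another order, was not tested. With the replicate block 9724 genes were called for VPRP sgHBB against WT (9868 without), and the lost call was NUPR1 in VPRP sgHBB against VPRP non-target (adjusted p = 0.0555). With 2 libraries a group, small differences of genes with few reads, such as NUPR1, DDIT3 and VLDLR, were at the limit of what this depth resolves.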

Other observations

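A list of 12 genes upstream of ATF4 held the eIF2 kinases EIF2AK1, EIF2AK2 and EIF2AK4, the phosphatase subunit PPP1R15B, eIF2 and eIF2B. It leaves out the kinase gene EIF2AK3 and the phosphatase gene PPP1R15A, which are members described above and were called higher in both VPRP groups. Of the 12, 8 were called lower and 0 higher in VPRP sgHBB (all genes 28% and 31.1%) and 8 and 0 in VPRP non-target (28.5% and 31.2%). There were 2 lower in VPR sgHBB (11.5% of all genes), 5 in p300 sgHBB (21.6%) and 4 in p300 D1399Y sgHBB (14.5%), with 0 higher in each; the VPR share is near that of all genes. EIF2S3, the gamma subunit of eIF2, fell from 682 to 371 CPM in VPRP sgHBB (log2 -0.88, adjusted p = 2.94e-13), and EIF2AK4, the amino acid sensing kinase GCN2, by log2 -0.57. In VPRP non-target EIF2AK2, the kinase PKR that senses double-stranded RNA, fell from 61.3 to 29.8 CPM (log2 -1.04, adjusted p = 1.22e-11).

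Of 8 mitochondrial chaperones and proteases, 7 were lower and 1 higher in each VPRP group, against the same shares of all genes. In VPR sgHBB 2 were lower and 0 higher (all genes 11.5% and 13.8%), and in p300 sgHBB 5 and 0 (21.6% and 24.5%). In p300 D1399Y sgHBB 2 were lower and 1 higher (14.5% and 15.7%). The VPR and p300 D1399Y counts are too small to be set apart from these shares. HSPE1, the mitochondrial Hsp10, was higher in VPRP sgHBB, at 17.6 against 8.63 CPM (log2 1.03, adjusted p = 5.71e-05), and in VPRP non-target its call ended without VPRP non-target replicate 1 (log2 0.22, adjusted p = 0.391). TRAP1, the mitochondrial Hsp90, was lower in VPRP sgHBB (log2 -0.73, adjusted p = 1.62e-09). These lists were chosen with results of these data known.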
